A study of Mus musculus with 4 samples.

Results

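The set described here holds 42 named marker genes of macrophages, monocytes, neutrophils and dendritic cells, read on 4 single-colour mouse expression arrays. The genes are given by name, and each was read from its brightest probe. Of the 42 genes, 37 had a probe under their own or a listed alternative name, out of 27745 gene names on the array. Lyz1 and Zbtb46 were found through RefSeq under the array's names Lyz and Btbd4 and are described beside the 37. They are left out of the counts of tested genes but included in those of promoter windows. Cebpe, Ly6g and Clec4a4 were not analysed here.

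RNA came from 2 B-cell lymphoma lines, which were set up separately from dopamine receptor 3 transgenic mice, and from 2 samples of B220+ splenocytes. All 4 samples were labelled as C57BL/6N and female. Each line is represented by 1 array, and the promoter of the transgene, the ages and the number of mice are not given in the sources used here. The groups differed at once as lymphoma and normal cells, as cultured lines and cells selected from the spleen, and as derivatives of transgenic and other mice, and these differences cannot be told apart. No label says that samples of a group came from separate animals, so p-values measure the spread between these arrays, which may be technical.

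B220 is a form of the surface phosphatase CD45 that is used to select B cells from the mouse spleen. In mice, plasmacytoid dendritic cells carry it as well. Macrophages, neutrophils and conventional dendritic cells arise from myeloid progenitors, are known for lysosomal enzymes, granule proteins, scavenger receptors and activating Fc receptors, and depend on the growth factor receptors Csf1r, Csf3r and Flt3. The transcription factors PU.1 and C/EBP are known to act on many of their genes. B cells share PU.1, the ITAM-coupled kinases and some Fc receptors with myeloid cells, so that not every gene of the set is foreign to a B cell.

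All 9 B cell markers were well above background on all 4 arrays, and their summed scaled signal was 43030 to 44049 in the lines and 75176 to 95567 in the splenocytes. Of these 9, 7 were lower in the lines, 0 higher and 2 did not pass (limma, adjusted p under 0.05). The shares over all tested genes were 32.8% lower and 30.7% higher. The median log2 difference of the B cell markers was −1.83, against −1.85 for the tested genes of the set. Splenocyte sample 2 gave the dimmest array, with a 75th percentile of the processed signal of 514, against 1078 for splenocyte sample 1 and 1122 to 1315 for the lines. Signals are therefore given as scaled signals, in which the 75th percentile of each array is 100, and differences as log2 of lines minus splenocytes. "Well above background" is the scanner software's flag for a spot, and 24974 to 27319 of 41174 probes carried it. The lowest scaled signal with this flag was 0.608 to 1.26, depending on the array.

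The promoters of 4 genes are shown because they had the most negative log2 differences of the set between lines and splenocytes. They are the 250 bases before the start of each gene in RefSeq (GRCm38.p6), written 5′ to 3′ on the strand of the gene. Capitals mark the matches to the PU.1 core AGGAAGT and to the C/EBP motif TTGCNNAA on either strand. Lyz2 (Lyzs on the array) lies at chr10:117282273-117282522 and Lyz1 at chr10:117292869-117293118, both on the minus strand. S100a8 lies at chr3:90668821-90669070 on the plus strand and S100a9 at chr3:90695722-90695971 on the minus strand.
Lyz2: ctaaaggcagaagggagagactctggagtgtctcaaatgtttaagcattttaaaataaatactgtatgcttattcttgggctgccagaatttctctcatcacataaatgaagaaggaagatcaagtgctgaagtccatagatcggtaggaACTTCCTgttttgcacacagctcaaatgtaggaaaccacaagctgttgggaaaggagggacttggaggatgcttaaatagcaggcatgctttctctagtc
Lyz1: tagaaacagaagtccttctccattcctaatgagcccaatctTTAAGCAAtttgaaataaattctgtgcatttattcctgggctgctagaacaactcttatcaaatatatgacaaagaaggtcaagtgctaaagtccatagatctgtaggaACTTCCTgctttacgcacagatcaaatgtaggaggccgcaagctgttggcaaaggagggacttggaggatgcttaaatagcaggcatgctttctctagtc
S100a8: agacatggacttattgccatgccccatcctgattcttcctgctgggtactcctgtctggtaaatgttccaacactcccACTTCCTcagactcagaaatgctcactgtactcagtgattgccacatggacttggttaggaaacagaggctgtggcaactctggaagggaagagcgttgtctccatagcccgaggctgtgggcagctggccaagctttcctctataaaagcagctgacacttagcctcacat
S100a9: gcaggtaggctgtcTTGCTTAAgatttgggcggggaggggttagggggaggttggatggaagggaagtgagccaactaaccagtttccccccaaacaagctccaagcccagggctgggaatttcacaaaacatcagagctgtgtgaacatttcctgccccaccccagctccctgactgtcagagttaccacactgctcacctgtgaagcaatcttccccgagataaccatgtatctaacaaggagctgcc

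The windows of both lysozyme genes and of S100a8 hold the PU.1 core, in the reverse orientation, and those of Lyz1 and S100a9 hold the C/EBP motif. Over the 100 bases nearest to the start the windows of Lyz1 and Lyz2 were identical at 92 positions without gaps, and over all 250 bases at 152. RefSeq windows, which run 50 bases past the start, were matched by symbol for 31 genes, Lyz1 and Zbtb46 included. The PU.1 core stood in 9 of these 31, against 10.7% of all genes with a window, and the C/EBP motif in 8 of 31, against 12.2% of all genes. A match is a description of these letters and not a binding site.

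Most of the set was lower in the lymphoma lines. Of the 37 genes, 31 could be tested, and 20 of them were lower in the lines, 5 were higher and 6 did not pass. The genes that rose were Emr1, Mrc1, Flt3, Cebpd and Siglech, and the first 4 of these were called higher in all 15 alternative settings. Over all 18306 genes tested, 63.5% were called, 32.8% lower and 30.7% higher (limma, adjusted p under 0.05). Signals of both lines lay below those of both splenocyte samples for 24 of the 31 tested genes and above them for 5, against 43.9% and 41.2% of all tested genes. The median log2 difference of the 31 genes was −1.85, or −1.49 with dim genes at their bounds, against −0.049 for all tested genes.

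The filter on dim probes bears on these counts. A gene was tested if its probe was well above background on at least 2 of the 4 arrays, and 11 of the 31 tested genes were so in the splenocytes alone, so that the filter let them in only because they were higher there. A separate test took only the 15192 genes whose probe was well above background on all 4 arrays, 19 of them from the set. In that test 10 of the 19 were lower and 5 higher, against 33.1% and 33.2% of all genes in it. The 10 include genes that did not pass in the main test. The all-gene median moved by 0.41 when arrays were centred on their medians, and the share of calls that were higher was then 63.0%, against 48.4% with the 75th percentile; 17 genes of the set were then lower and 5 higher. In bulk RNA, fewer cells of a type and less RNA per cell cannot be told apart.

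**Figure D1:**
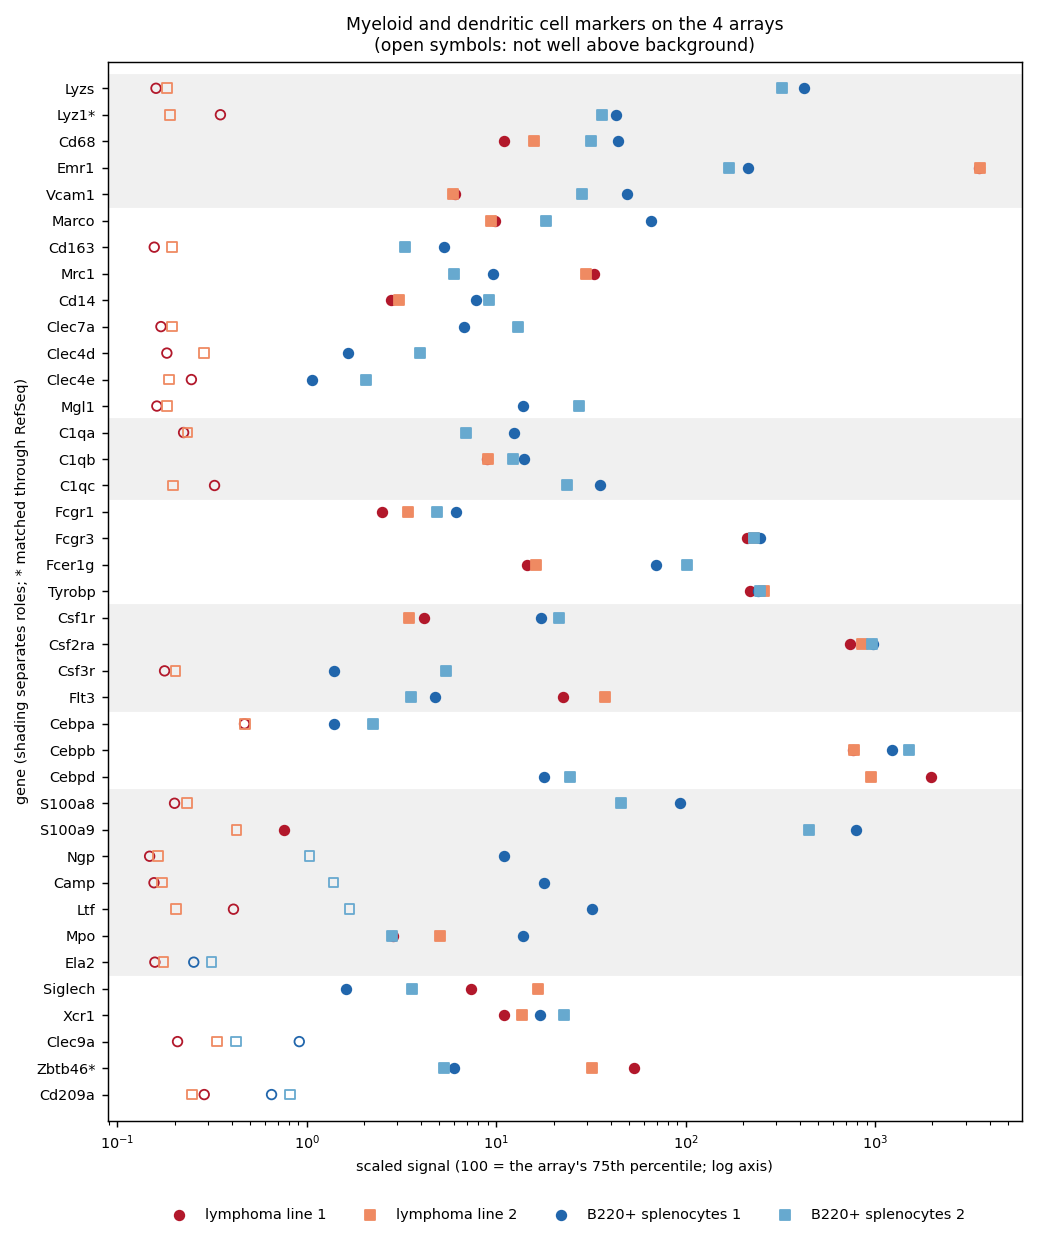
Scaled signal (log axis, 100 = the 75th percentile of the array) of each gene of the set on the 4 arrays, with lymphoma lines in red and orange and B220+ splenocytes in blue. Open symbols are not well above background, and asterisks mark Lyz1 and Zbtb46, matched through RefSeq. Emr1, Mrc1, Flt3, Cebpd, Siglech and Zbtb46 have both lines to the right of both splenocyte samples. Many genes have both lines at the left edge.

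The lysozymes, enzymes that cut bacterial cell walls, were at background in the lines. Lyzs (now Lyz2), the lysozyme of macrophages and granulocytes, read at mm8, chr10:116681504-116681563, had scaled signals of 0.160 and 0.183 in lines 1 and 2, against 419 and 319.9 in splenocyte samples 1 and 2. Neither line was well above background. The fold was therefore taken against the lowest signal with the background flag on each array, or the gene's own signal where that was higher. Such folds are called bounds and written as "at least" throughout. They are not strict limits, because some signals without the flag lay above the lowest one with it. In line 1 that lowest signal was 0.608, and Itgax had 0.731 without the flag. Lyzs was at least 517-fold lower in the lines, with a log2 difference of −11.07 ± 0.20 (SE; limma adjusted p = 9.02e-05). Log2 differences of genes dim in a whole group rest on signals below background and are given with that limit throughout.

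Lyz1, the lysozyme known from Paneth cells of the mouse intestine, had a probe of its own (mm8, chr10:116692308-116692367). Its scaled signals were 0.349 and 0.189 in the lines, against 42.5 and 36.0 in the splenocytes, and it was at least 55.2-fold lower in the lines (log2 difference −7.25 ± 0.34, SE; limma adjusted p = 0.000345). The signals of both groups were far apart at both lysozyme probes. A second Lyzs probe (mm8, chr10:116686229-116686288) was dim, with 0.232 and 0.163 in the lines, against 2.08 and 2.31 in the splenocytes, and its signal in the lines was at least 3.10-fold lower as well. Whether the probes of these closely related genes also bind each other's transcript was not tested.

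The macrophage surface genes moved in both directions. Emr1 (now Adgre1) encodes F4/80, an adhesion-class receptor used to mark mouse macrophages. At mm8, chr17:57168755-57168814 its scaled signals were 3532 and 3567 in lines 1 and 2, against 213 and 169 in splenocyte samples 1 and 2. Both lines lay far above both splenocyte samples, and the lines agreed closely with each other. Emr1 was 18.7-fold higher in the lines (log2 difference 4.23 ± 0.18, SE; limma adjusted p = 0.000282). Its second probe (mm8, chr17:57096133-57096192) gave 39.0 and 36.9 in the lines, against 1.35 and 1.43 in the splenocytes, with splenocyte sample 2 not well above background, and a log2 difference of 4.77 ± 0.14 (SE; limma adjusted p = 0.000154).

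Cd68, a lysosomal glycoprotein of macrophages, had 11.0 and 15.9 in the lines, against 43.8 and 31.6 in the splenocytes, and was 2.82-fold lower in the lines (log2 difference −1.49 ± 0.28, SE; limma adjusted p = 0.0104). Vcam1, the integrin ligand found on endothelium and on splenic red pulp macrophages, had 6.06 and 5.92 in the lines, against 48.9 and 28.4 in the splenocytes, and was 6.22-fold lower (log2 difference −2.64 ± 0.30, SE; limma adjusted p = 0.00264). Both genes remained well above background in the lines, unlike the lysozymes, and the groups did not overlap.

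Of the 8 scavenger and pattern recognition receptors, 6 were lower, 1 was higher and 1 did not pass. Mrc1, the mannose receptor CD206, was the one that rose. It had 32.5 and 29.7 in the lines, against 9.54 and 5.97 in the splenocytes, which is 4.12-fold higher in the lines (log2 difference 2.04 ± 0.27, SE; limma adjusted p = 0.00396). Cd14, the co-receptor for lipopolysaccharide, was low everywhere, with 2.79 and 3.04 in the lines, against 7.82 and 9.16 in the splenocytes. All 4 values were well above background and Cd14 was 2.91-fold lower in the lines (log2 difference −1.54 ± 0.16, SE; limma adjusted p = 0.00217).

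The other 5 genes that were lower in this group were not well above background in either line. Mgl1 (now Clec10a), a galactose-binding lectin, had 0.161 and 0.182 in the lines, against 13.8 and 27.3 in the splenocytes. Its mean in the lines was at least 27.5-fold lower (log2 difference −6.83 ± 0.37, SE; limma adjusted p = 0.000460). Clec7a, the beta-glucan receptor Dectin-1, had 0.170 and 0.194 in the lines, against 6.71 and 13.0 in the splenocytes, and was at least 13.2-fold lower (log2 difference −5.69 ± 0.36, SE; limma adjusted p = 0.000672). In both lectin genes splenocyte sample 2 was the higher one.

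Cd163, which takes up haemoglobin bound to haptoglobin, had 0.156 and 0.194 in the lines, against 5.26 and 3.30 in the splenocytes, and was at least 5.88-fold lower in the lines (log2 difference −4.58 ± 0.29, SE; limma adjusted p = 0.000659). Clec4d and Clec4e, lectins that recognise mycobacterial glycolipids, were near the limit of detection in the splenocytes too. Clec4d had 0.182 and 0.286 in the lines, against 1.64 and 3.95 in the splenocytes, and was at least 3.60-fold lower (log2 difference −3.48 ± 0.50, SE; limma adjusted p = 0.00502). Clec4e had 0.245 and 0.187 in the lines, against 1.07 and 2.05 in the splenocytes, and was at least 2.09-fold lower (log2 difference −2.79 ± 0.37, SE; limma adjusted p = 0.00408). With normexp background correction neither passed, at −1.02 (limma adjusted p = 0.0562) for Clec4d and −0.84 (limma adjusted p = 0.102) for Clec4e.

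Marco, a scavenger receptor of marginal zone macrophages, was the gene of this group that did not pass. It had 9.86 and 9.35 in lines 1 and 2, against 65.6 and 18.2 in splenocyte samples 1 and 2. Both lines were below both splenocyte samples, but the splenocyte samples differed 3.60-fold from each other, and the log2 difference was −1.85 ± 0.64 (SE; limma adjusted p = 0.0633). Without splenocyte sample 1 it was −0.92, and without splenocyte sample 2 it was −2.77. Each of these fits holds 1 splenocyte array, so the spread between the splenocyte samples does not enter it.

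The 3 chains of complement C1q, which in the spleen are made mainly by macrophages, were all lower in the lines, but not to a like level. C1qa had 0.223 and 0.235 in the lines, against 12.3 and 6.93 in the splenocytes, and C1qc had 0.325 and 0.196 in the lines, against 35.4 and 23.7 in the splenocytes. Both were at background in the lines. C1qa was at least 13.1-fold lower there (log2 difference −5.34 ± 0.32, SE; limma adjusted p = 0.000573) and C1qc at least 40.9-fold (log2 difference −6.84 ± 0.35, SE; limma adjusted p = 0.000403). C1qb, whose protein assembles with the other chains, kept a signal in the lines of 8.88 and 8.99, against 13.9 and 12.2 in the splenocytes, and its log2 difference was −0.54 ± 0.15 (SE; limma adjusted p = 0.0335). The call of C1qb was lost in 8 of 15 alternative settings, and with quantile normalization its difference was −0.22 (limma adjusted p = 0.240).

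**Figure D2:**
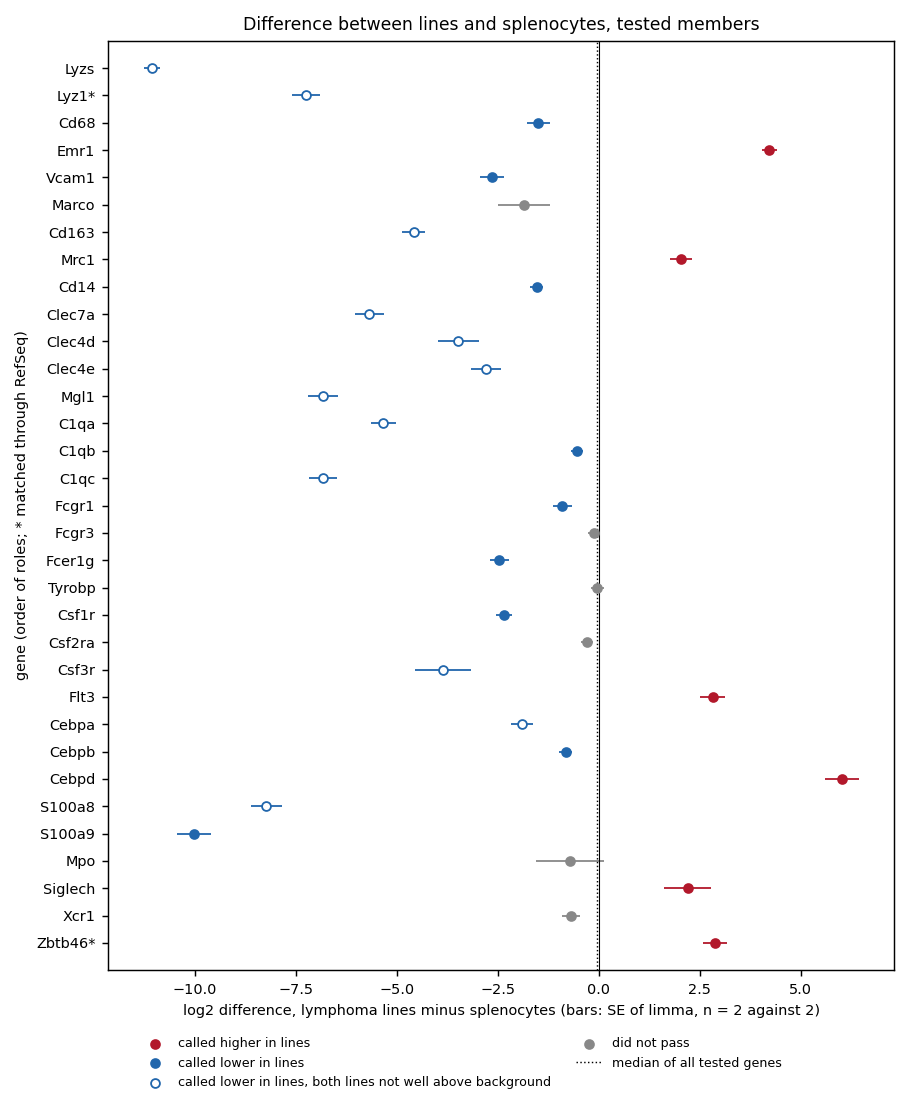
Log2 difference, lymphoma lines minus splenocytes, of each tested gene in the order of roles; bars are the SE from limma (n = 2 against 2). Open symbols have both lines not well above background; the dotted line is the median of all tested genes at −0.049, and Lyzs at −11.07 and Cebpd at 6.03 are the ends of the range.

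The Fc receptors and their signalling adaptors gave 2 genes lower and 2 that did not pass. Fcer1g, the ITAM-bearing chain shared by activating Fc receptors, had 14.4 and 16.2 in the lines, against 69.5 and 102 in the splenocytes. It was 5.50-fold lower in the lines (log2 difference −2.46 ± 0.24, SE; limma adjusted p = 0.00175), and its second probe was lower as well, with a log2 difference of −4.06 ± 0.25 (SE; limma adjusted p = 0.000570). Tyrobp encodes DAP12, an ITAM adaptor of myeloid and NK cell receptors. Its signals were 217 and 257 in the lines, against 239 and 245 in the splenocytes, and the groups overlapped (log2 difference −0.033 ± 0.16, SE; limma adjusted p = 0.868). Tyrobp read 0.37 with arrays centred on the median.

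Fcgr1, the high-affinity receptor for IgG, was low on all arrays, with 2.50 and 3.41 in the lines, against 6.15 and 4.86 in the splenocytes. It was lower in the lines, with a log2 difference of −0.90 ± 0.23 (SE; limma adjusted p = 0.0279). The call was lost in 8 of 15 alternative settings, among them the mean over both Fcgr1 probes, at −0.26 (limma adjusted p = 0.484). The difference was −0.68 without line 1, −0.73 without splenocyte sample 1 and −1.07 without splenocyte sample 2. A second, dimmer Fcgr1 probe gave 0.38 and did not pass.

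Fcgr3, a low-affinity receptor for IgG that pairs with the chain encoded by Fcer1g, read differently at its 2 probes. The brighter probe (mm8, chr1:172890673-172890732) had 210.1 and 228 in the lines, against 244 and 229.6 in the splenocytes. The lines lay just below the splenocytes, and the log2 difference was −0.11 ± 0.14 (SE; limma adjusted p = 0.527). At the other probe (mm8, chr1:172888191-172888266) the signals were 59.7 and 76.4 in the lines, against 5.02 and 4.12 in the splenocytes. There the lines were 14.8-fold higher (log2 difference 3.89 ± 0.21, SE; limma adjusted p = 0.000418). The mean over both probes was 1.89 (limma adjusted p = 0.00140), and which transcripts each probe reads was not tested.

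Of the 4 growth factor receptors, 2 were lower in the lines, 1 was higher and 1 did not pass. Csf1r, the receptor for macrophage colony-stimulating factor, had 4.15 and 3.46 in the lines, against 17.2 and 21.4 in the splenocytes, and was 5.07-fold lower in the lines (log2 difference −2.34 ± 0.19, SE; limma adjusted p = 0.00123). A second Csf1r probe gave a difference of −2.44 ± 0.34 (SE; limma adjusted p = 0.00399). Csf3r, the receptor for granulocyte colony-stimulating factor, was at background in the lines and unequal between the splenocyte samples, with 0.177 and 0.202 in lines 1 and 2, against 1.38 and 5.43 in splenocyte samples 1 and 2. It was at least 3.87-fold lower (log2 difference −3.85 ± 0.69, SE; limma adjusted p = 0.00930), and −1.01 (limma adjusted p = 0.0784) with normexp background correction.

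Csf2ra, the ligand-binding chain of the receptor for granulocyte-macrophage colony-stimulating factor, was bright on all 4 arrays. It had 731 and 854 in the lines, against 968 and 960.0 in the splenocytes, and the log2 difference of −0.29 ± 0.16 (SE; limma adjusted p = 0.173) did not pass. With arrays centred on the median it was 0.12. Flt3, the receptor for FLT3 ligand on early progenitors and dendritic cells, went the other way. It had 22.6 and 37.2 in lines 1 and 2, against 4.76 and 3.54 in splenocyte samples 1 and 2, so that both lines were above both splenocyte samples. Flt3 was 7.06-fold higher in the lines (log2 difference 2.82 ± 0.32, SE; limma adjusted p = 0.00255), and both lines differed less from each other than from either splenocyte sample.

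The C/EBP transcription factors, which drive granulocyte and macrophage genes, showed 3 different patterns. Cebpd, known from the acute-phase response and from late granulocyte maturation, read at mm8, chr16:15801944-15802003, had 1953 and 949.5 in lines 1 and 2, against 17.8 and 24.5 in splenocyte samples 1 and 2. This was the largest rise of the set, 65.2-fold (log2 difference 6.03 ± 0.41, SE; limma adjusted p = 0.000791), although line 1 was 2.06-fold above line 2. Cebpb, which acts in macrophage activation, was bright on all arrays, with 765 and 769 in the lines, against 1218 and 1507 in the splenocytes. It was 1.77-fold lower in the lines (log2 difference −0.82 ± 0.17, SE; limma adjusted p = 0.0147). Without splenocyte sample 2 the value was −0.67. The call of Cebpb was lost in 2 of 15 alternative settings, among them median centring, at −0.41 (limma adjusted p = 0.129). Its second probe gave −0.43 ± 0.16 (SE; limma adjusted p = 0.0714) and did not pass.

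Cebpa, needed for the step to granulocyte and monocyte progenitors, was close to background on every array. Its brighter probe (mm8, chr7:34830258-34830317) had 0.468 and 0.471 in the lines, against 1.38 and 2.24 in the splenocytes, and was at least 2.49-fold lower in the lines (log2 difference −1.91 ± 0.27, SE; limma adjusted p = 0.00489). The other probe (mm8, chr7:34829102-34829161) had 0.983 and 1.01 in the lines, against 0.798 and 0.891 in the splenocytes. It was well above background in the lines only, and its difference was 0.24 ± 0.15 (SE; limma adjusted p = 0.219). The sign of the difference for Cebpa thus depends on the probe.

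**Figure D3:**
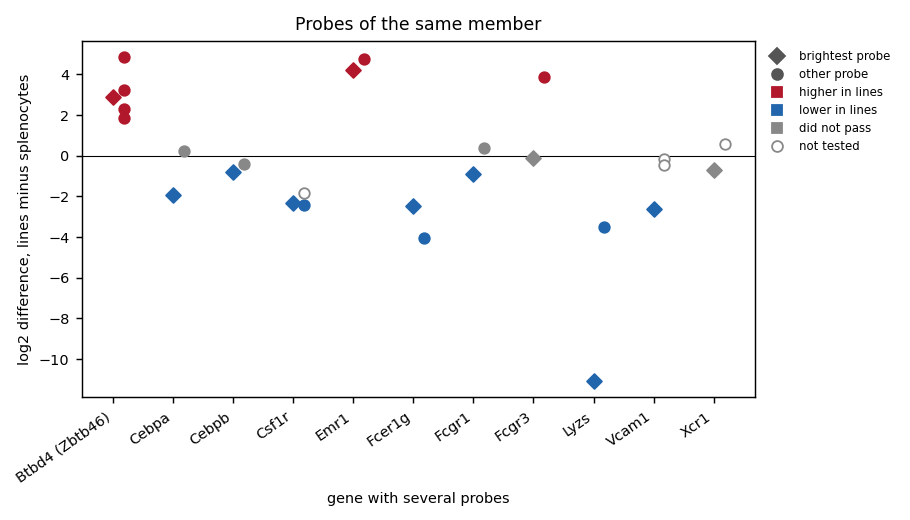
Log2 difference, lymphoma lines minus splenocytes, of each probe of the genes with several probes; diamonds are the brightest probe and circles the others, in red where called higher, blue where called lower, grey where the test was not passed and open where not tested. The probes of Btbd4 (Zbtb46) and Emr1 all lie above 0, whereas the 2 Fcgr3 probes lie at −0.11 and 3.89.

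Of the 7 neutrophil genes, 5 were not well above background in either line. S100a9 was well above background in line 1 only, and Mpo in both lines. S100a8 and S100a9 form calprotectin, the main cytosolic calcium-binding complex of neutrophils. S100a9 (mm8, chr3:90778590-90778649) had 0.755 and 0.426 in lines 1 and 2, against 792 and 445 in splenocyte samples 1 and 2. The signals were far apart, and the log2 difference was −10.03 ± 0.42 (SE; limma adjusted p = 0.000282), which rests in part on a signal below background in line 2. S100a8 (mm8, chr3:90755783-90755842) had 0.200 and 0.233 in the lines, against 93.1 and 45.5 in the splenocytes, and was at least 92.0-fold lower in the lines (log2 difference −8.24 ± 0.38, SE; limma adjusted p = 0.000341). Splenocyte sample 1 was the higher of the pair for both genes.

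Of the granule protein genes, Ltf, Camp and Ngp were seen in splenocyte sample 1 alone. Ltf, the iron-binding lactoferrin, had 0.409 and 0.204 in the lines, against 32.0 and 1.68 in the splenocytes. Camp, the cathelicidin precursor, had 0.156 and 0.172 in the lines, against 17.7 and 1.38 in the splenocytes, and Ngp, a granule protein of the cystatin type, had 0.148 and 0.164 in the lines, against 11.0 and 1.03 in the splenocytes. These 3 genes were well above background on that array only and were not tested. Ela2 (now Elane), the elastase of primary granules, was not well above background on any array, with 0.157 and 0.175 in the lines, against 0.253 and 0.314 in the splenocytes.

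Mpo, the myeloperoxidase of primary granules, was well above background on all arrays. It had 2.85 and 5.03 in lines 1 and 2, against 13.8 and 2.80 in splenocyte samples 1 and 2. Splenocyte sample 1 stood apart and the groups overlapped (log2 difference −0.71 ± 0.84, SE; limma adjusted p = 0.493). Without splenocyte sample 1 the difference was 0.43, and without splenocyte sample 2 it was −1.86.

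Among the dendritic cell markers, 1 of the 2 tested genes was higher in the lines. Siglech, a sialic acid-binding lectin of plasmacytoid dendritic cells, had 7.35 and 16.6 in lines 1 and 2, against 1.61 and 3.59 in splenocyte samples 1 and 2. It was 4.59-fold higher in the lines (log2 difference 2.20 ± 0.58, SE; limma adjusted p = 0.0289), with line 2 at 2.26-fold line 1. The call was lost in 4 of 15 alternative settings. The difference was 1.61 without line 2 and 1.62 without splenocyte sample 1. Xcr1, the chemokine receptor of cross-presenting dendritic cells, had 10.9 and 13.6 in the lines, against 16.9 and 22.8 in the splenocytes, and its difference of −0.69 ± 0.23 (SE; limma adjusted p = 0.0546) did not pass. Xcr1 was called lower in 3 of 15 alternative settings, which include fits with 1 array left out. A second Xcr1 probe, well above background in line 2 only, was not tested.

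Clec9a, a receptor for dead cells on the same dendritic cells, and Cd209a, a mouse relative of DC-SIGN, were not well above background on any array. Clec9a had 0.207 and 0.336 in the lines, against 0.911 and 0.423 in the splenocytes, and Cd209a had 0.287 and 0.247 in the lines, against 0.650 and 0.815 in the splenocytes. No direction is given for either. Zbtb46, a transcription factor of conventional dendritic cells, was read under the name Btbd4 and had 53.4 and 32.0 in the lines, against 5.94 and 5.30 in the splenocytes. It was 7.36-fold higher in the lines (log2 difference 2.88 ± 0.29, SE; limma adjusted p = 0.00195), and its other 4 probes were also called higher. Of these, 2 were well above background on all arrays and gave 3.22 and 2.28 on the log2 scale, 1 had splenocyte sample 2 at background, and 1 had both splenocyte samples at background with a bound of 1.13-fold.

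The arrays within each group were compared as well. For 95% of all tested genes the splenocyte samples lay within 0.88 of each other on the log2 scale, and the lines within 1.13. Of the 31 tested genes of the set, 9 exceeded the first range and 1, Siglech, the second, but 6 of the 9 were among the genes at background in both lines, whose line-to-line difference is one of background. Of the 19 genes well above background on all 4 arrays, 3 exceeded the first range and 1 the second. Marco, Mpo and S100a8 were higher in splenocyte sample 1, by 1.85, 2.30 and 1.03. Csf3r, Clec4d, Siglech, Mgl1, Clec7a and Clec4e were higher in splenocyte sample 2, by 0.94 to 1.97.

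The untested granule genes differed most, with splenocyte sample 1 above sample 2 by 4.25 for Ltf, 3.68 for Camp and 3.41 for Ngp on the log2 scale, against sample 2 signals not well above background. Of the 4 megakaryocyte and platelet markers, Ppbp had 0.177 and 0.202 in the lines, against 6.44 and 1.39 in the splenocytes, and Pf4 had 0.179 and 0.204 in the lines, against 3.92 and 1.44 in the splenocytes. They too were well above background in splenocyte sample 1 only, whereas Itga2b was so on all 4 arrays and higher in splenocyte sample 2, and Gp9 on none. In 10 of 13 tested genes of the wider neutrophil list splenocyte sample 1 was the higher one, with a median of 0.63. It was the higher one in 17 of the 31 tested genes of the set, with a median of 0.090. Over all companion lists it was so in 46 of 83, with a median of 0.036. The part of cell content, and of the dimmer array of sample 2, in these differences was not tested.

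**Figure D4:**
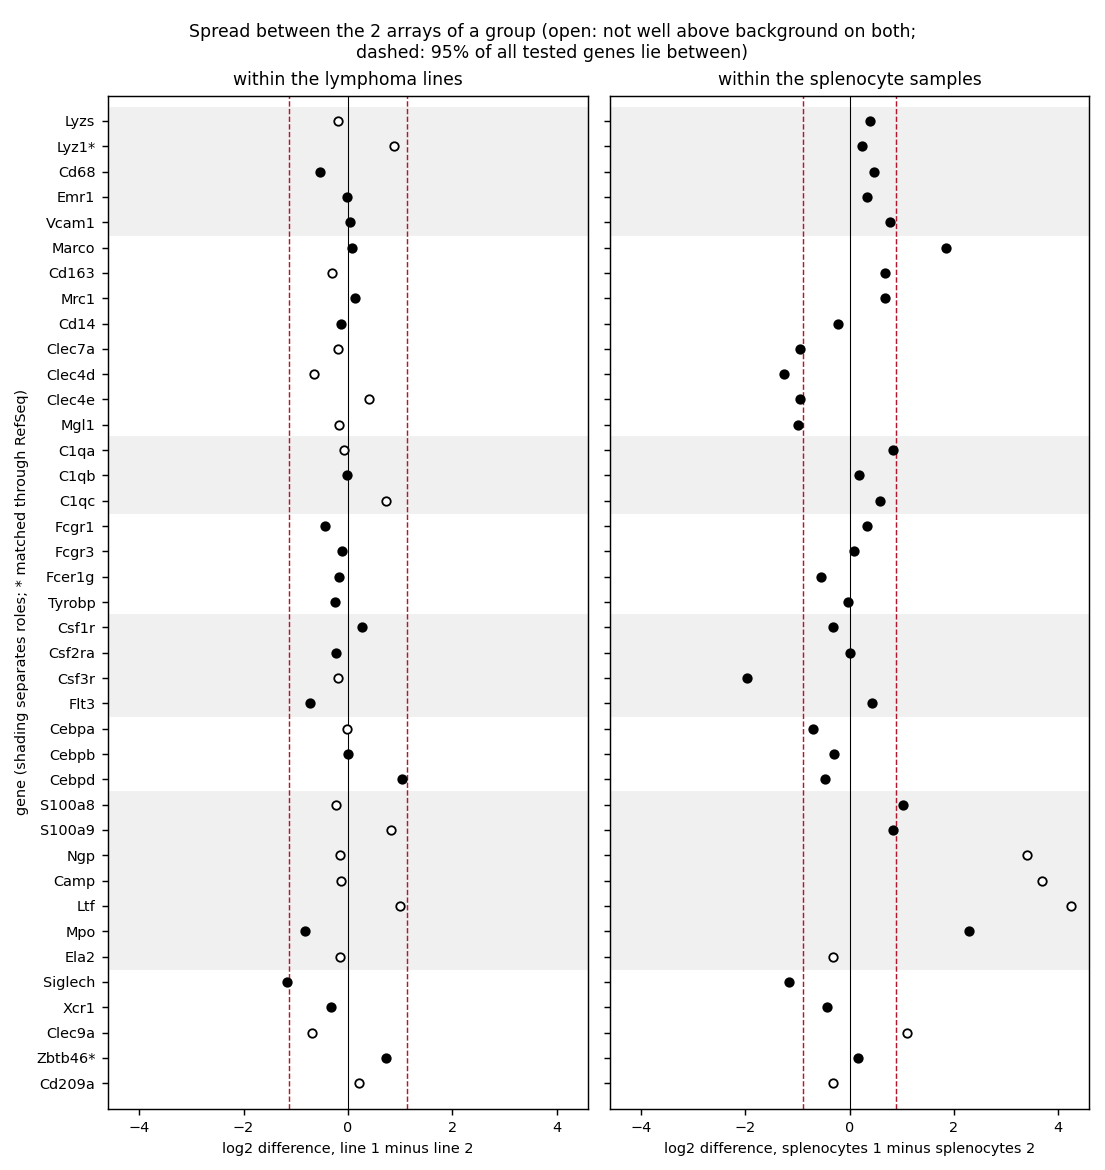
Log2 difference between the 2 lymphoma lines (left) and between the 2 splenocyte samples (right) for each gene of the set; open symbols are not well above background on both arrays, and dashed lines enclose 95% of all tested genes. Ltf, Camp and Ngp lie beyond 3 in the splenocyte panel, and Siglech alone of the tested genes lies outside the lines in the left panel.

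Beyond the set, 5 companion lists held 97 genes known from the same cell types, not all of them foreign to a B cell. A probe was found for 96 of them, and 83 were tested. Of these, 42 were lower in the lines, 20 were higher and 21 did not pass. The shares over all tested genes were 32.8% lower and 30.7% higher. Of the 83, 13 were well above background in neither line. In the separate test of genes well above background on all 4 arrays, 27 of 61 companion genes were lower and 18 higher. The shares of all genes in that test were 33.1% and 33.2%. Their median difference was −0.25, and that of the 19 genes of the set under the same filter −0.69, against −0.018 for all genes under it.

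The wider neutrophil list had 7 genes lower, 2 higher and 4 that did not pass among 13 tested. Anxa1, the phospholipid-binding annexin A1, had 1.47 and 1.07 in the lines, against 371 and 331 in the splenocytes, a log2 difference of −8.12 ± 0.21 (SE; limma adjusted p = 0.000136). Pglyrp1, which binds peptidoglycan, had 4.47 and 6.32 in the lines, against 169 and 209 in the splenocytes, a difference of −5.14 ± 0.24 (SE; limma adjusted p = 0.000345). These genes were lower in both lines. Chi3l3, the chitinase-like protein Ym1, had 147 and 210.1 in the lines, against 38.6 and 16.1 in the splenocytes, and was higher in both lines (log2 difference 2.82 ± 0.48, SE; limma adjusted p = 0.00825). Cd177, a neutrophil surface glycoprotein, had 6.20 and 6.48 in the lines, against 3.55 and 2.29 in the splenocytes (log2 difference 1.15 ± 0.26, SE; limma adjusted p = 0.0176). Its call was lost in 4 of 15 alternative settings. With normexp background correction the difference of Cd177 was 0.050 (limma adjusted p = 0.856).

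Monocyte and macrophage genes were divided, with 9 lower, 8 higher and 4 that did not pass among 21 tested. Slc40a1, the iron exporter ferroportin, had 0.167 and 0.189 in the lines, against 46.3 and 38.7 in the splenocytes, and was at least 59.8-fold lower in the lines (log2 difference −7.90 ± 0.17, SE; limma adjusted p = 0.000105). Pltp, a phospholipid transfer protein, had 2.57 and 0.391 in the lines, against 37.7 and 39.8 in the splenocytes (log2 difference −5.27 ± 0.93, SE; limma adjusted p = 0.00909), with line 2 not well above background. Hmox1, the haem-degrading oxygenase, and Ms4a7, a membrane protein of macrophages, were high in both lines. Hmox1 had 718 and 721 in the lines, against 47.1 and 49.7 in the splenocytes (log2 difference 3.89 ± 0.14, SE; limma adjusted p = 0.000206), and Ms4a7 had 487 and 461 in the lines, against 52.6 and 29.2 in the splenocytes (log2 difference 3.60 ± 0.32, SE; limma adjusted p = 0.00145).

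Of 21 tested dendritic cell genes, 12 were lower, 6 higher and 3 did not pass. Itgax, the integrin chain CD11c, had 0.731 and 0.326 in the lines, against 97.8 and 92.2 in the splenocytes, and was at least 122-fold lower in the lines (log2 difference −7.60 ± 0.42, SE; limma adjusted p = 0.000497). Tlr3, a receptor for double-stranded RNA, had 0.149 and 0.164 in the lines, against 27.4 and 16.0 in the splenocytes, and was at least 29.5-fold lower (log2 difference −7.06 ± 0.30, SE; limma adjusted p = 0.000289). Both were at background in the lines. The chemokine Ccl22 had 24.3 and 37.6 in the lines, against 0.502 and 0.303 in the splenocytes, the splenocytes being at background, and was at least 32.5-fold higher in the lines (log2 difference 6.28 ± 0.36, SE; limma adjusted p = 0.000525). Batf3, a transcription factor of cross-presenting dendritic cells read under the array's name 9130211I03Rik, had 103 and 44.5 in the lines, against 6.90 and 6.73 in the splenocytes (log2 difference 3.31 ± 0.43, SE; limma adjusted p = 0.00384).

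Partners of the Fc receptors and ITAM adaptors were lower in 9 of 12 tested genes, with 1 higher and 2 that did not pass. Trem1, a receptor that signals through DAP12, had 0.184 and 0.211 in the lines, against 8.37 and 9.20 in the splenocytes, and was at least 12.4-fold lower in the lines (log2 difference −5.48 ± 0.16, SE; limma adjusted p = 0.000155). Sirpb1, another DAP12-coupled receptor, had 0.557 and 0.619 in the lines, against 9.87 and 15.2 in the splenocytes, and was at least 17.3-fold lower (log2 difference −4.38 ± 0.26, SE; limma adjusted p = 0.000571). Neither receptor was above background in the lines, whereas Tyrobp itself was bright there and did not pass the test. Fcgr4, an activating IgG receptor of mouse monocytes and neutrophils, was the gene that rose, with 185 and 193 in the lines, against 16.0 and 23.2 in the splenocytes (log2 difference 3.30 ± 0.23, SE; limma adjusted p = 0.000834).

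The last list, other myeloid growth factor receptors, ligands and transcription factors, had 5 genes lower, 3 higher and 8 that did not pass among 16 tested. Klf4, a zinc finger factor of monocytes that resting B cells also express, had 0.760 and 0.607 in the lines, against 5549 and 5815 in the splenocytes. It was at background in both lines and at least 7178-fold lower there (log2 difference −13.03 ± 0.18, SE; limma adjusted p = 9.02e-05). Csf2rb1, the beta chain that pairs with Csf2ra, had 2433 and 2113 in the lines, against 534 and 405 in the splenocytes (log2 difference 2.29 ± 0.20, SE; limma adjusted p = 0.00146), and its relative Csf2rb2, the beta chain for interleukin 3 in mice, had 948 and 757 in the lines, against 143 and 115 in the splenocytes (log2 difference 2.73 ± 0.21, SE; limma adjusted p = 0.000990). Both beta chains were thus higher in both lines, with their partner Csf2ra not past the test.

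**Figure D5:**
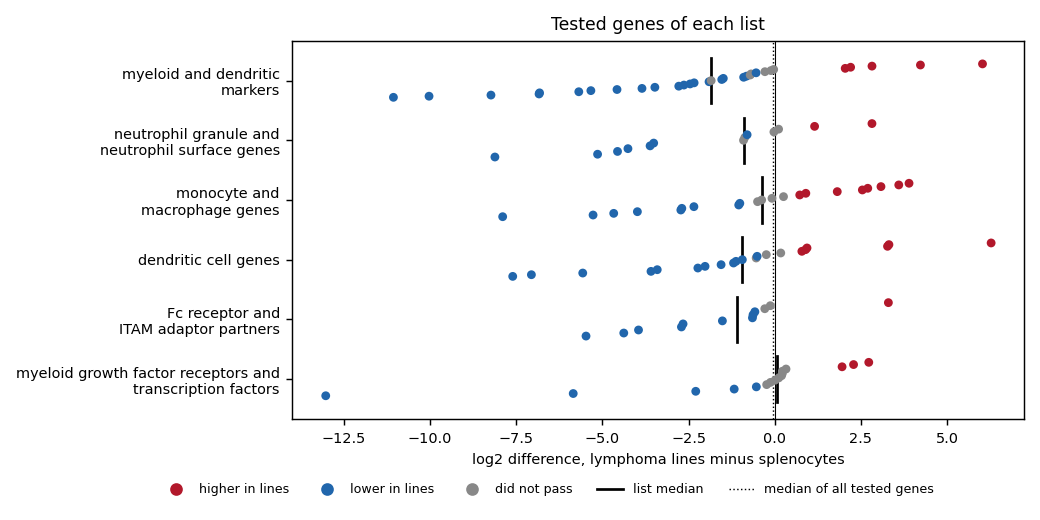
Log2 difference, lymphoma lines minus splenocytes, of each tested gene of the set and of the 5 companion lists; colours give the call, the thick bar the list's median and the dotted line the all-gene median of −0.049. The set's median lies at −1.85 and those of the companion lists between −1.08 and 0.06.

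Markers of other cells of the spleen moved in both directions. So did tested genes at large, of which 32.8% were called lower and 30.7% higher. NK cell genes were lower in 4 and higher in 1 of 5 tested. Their summed scaled signal was 43.5 to 57.1 in the lines and 140.7 to 142.6 in the splenocytes. Klrd1 and Gzma were not well above background in the lines, and Ncr1, which was not tested, on no array. Prf1 was the one higher in the lines, with 50.8 and 38.6, against 23.1 and 26.3 in the splenocytes (limma adjusted p = 0.0217). T cell genes went both ways, 3 lower and 3 higher of 8 tested, which is near the shares of all genes. Their sums were 1356 to 1528 in the lines and 671 to 889 in the splenocytes. Thy1, Cd3d and Lck were lower, with Thy1 at background in the lines. Cd3g was 20.5-fold, Cd5 5.89-fold and Cd8b1 2.89-fold higher in the lines. Erythroid genes, with Alas2 at background in the lines, were lower in 3 of 4 tested, with sums of 93.4 to 239 in the lines and 573 to 578 in the splenocytes. Stroma and endothelium genes were higher in 2 and lower in 1 of 4 tested. Pdgfrb and Col1a1, at background in the splenocytes, were at least 48.3-fold and 9.73-fold higher in the lines. Pecam1 was 8.02-fold lower. Of 2 tested mast cell and basophil genes, 1 was higher and 1 lower. The part of these cells in the differences of the myeloid genes was not tested.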

How the data were processed

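Total RNA of 2 lymphoma lines and 2 B220+ splenocyte samples was labelled with Cy3 and hybridised to 1 Agilent mouse array each. The deposited processed signal is an intensity, corrected for background and not normalized between arrays, from Feature Extraction (9.5.1.1 per the file headers, 9.5 per the submitters' processing notes). Raw mean and background intensities are deposited too. The deposited series matrix is the same intensity times 1 factor per array, read from the values.

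Flagged non-uniform and outlier spots were left out, which removed 153 probes, and spots of a probe were averaged. Main values are log2 of the processed signal over the 75th percentile of the array. Each gene name was represented by the probe with the highest mean scaled signal, and the 18306 names whose probe carried the background flag on 2 or more of the 4 arrays were tested. Groups were taken from the titles and compared with limma 3.58.1 in R 4.3.3 (lmFit, eBayes; 2.31 prior and 2 residual degrees of freedom), with Benjamini-Hochberg adjustment over all tested names. No spot was saturated, and the number of arrays limits the precision. The script was tested on simulated data.

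The members and lists were chosen with earlier results of these data known. The text names all 42 genes, each companion list's 2 called genes with the largest change per direction, probes that disagree with the brightest one, and the platelet and other spleen markers, which were named after their values were seen. Some genes of these lists are not reported here. Probe positions are those of the array annotation (mm8). Promoter windows are from RefSeq (GRCm38.p6), and Cebpd and Adgre1 windows were not used here. Alternatives were quantile normalization, median centring, another percentile, normexp, other filters and probe rules, the series matrix, each array left out and a replicate block.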

Additional observations from a re-analysis of the deposited data

How the results depend on the processing

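Among the genes of the set and the named companion genes, no alternative turned the direction of one that had passed the test, except that of Cebpa, which was 0.24 when the brightest probe was sought among probes passing the filter, a choice that takes its other probe. Genes that did not pass and changed sign were Fcgr3, at 0.29 with median centring and 1.89 as the mean over its probes, Tyrobp, at 0.37 with median centring and −0.15 to 0.089 with 1 array left out, Csf2ra, at 0.12 with median centring, and Mpo, at −1.86 to 0.43 with 1 array left out. With probes well above background on all 4 arrays, 10 genes of the set were lower, against 20, and 27 companion genes, against 42. Genes dim in the lines were then not tested, and the remaining genes were tested anew. Some genes of the set passed in that test but not in the main one. Leaving out each array in turn left 1 array in a group. The spread of that group is then not measured, so the numbers of genes called in these fits are not given. Of the single-gene values under alternatives, these fits included, 711 kept side and direction, 30 lost the call, 10 gained it and 7 changed sign. Siglech was not called with normexp, at 0.76.

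Median centring moved the all-gene median by 0.41, normexp by −0.26, quantile normalization by 0.14 and the percentile over bright probes by −0.13. The share of calls that were higher was 43.6% with that percentile and 48.4% in the reported setting. Same-numbered samples shared deviations at a correlation of 0.00752 over 2 pairs, so the numbers were not taken to pair them; with the replicate block 20 genes of the set were lower and 5 higher, 40 companion genes were lower and 20 higher, and 5603 genes were lower and 5236 higher overall. The planned slide and scan block was not run, because all 4 arrays shared 1 slide and 1 scan. Signal over background limits what can be said of the lines, where 11 tested genes of the set had only a bound.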
